A study of Mus musculus with 24 samples.

Results

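Rab genes encode small GTPases that mark the membrane compartments of a cell. The 59 described here are all protein-coding genes in the GENCODE mouse annotation whose symbol is Rab followed by a number and an optional letter, out of 21826 protein-coding genes with an annotated start site. Genes for regulators and partners of Rab proteins (Rabgap1, Rab3gap1, Rab11fip1 and similar) were not counted as members. Chromatin accessibility around them was measured by ATAC-seq, in which a transposase inserts adapters into open DNA, in bone marrow-derived macrophages cultured for 7 days from male mice at postnatal day 28. The mice were of 2 inbred strains, BTBR T+ Itpr3tf/J and C57BL6/J, with 4 animals each. Macrophages of every animal were divided over 3 treatments, which gave 24 libraries from 8 animals. Media cultures received no lipopolysaccharide (LPS), the bacterial cell wall component sensed by the receptor TLR4. LPSx1 cultures received 100 ng/ml LPS for 24 h. LPSx2 cultures received the same dose for 4 h, were washed, rested for about 20 h in base medium and received LPS again for 24 h. BTBR mice were animals 2, 3, 5 and 8, and C57BL6/J mice were animals 1, 4, 6 and 7. Each sequencing lane held 1 animal of each strain with all its treatments.

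A Rab protein is switched on when a guanine nucleotide exchange factor (GEF) loads it with GTP and switched off when a GTPase-activating protein (GAP) makes it hydrolyse that GTP. In the active state it sits in a membrane through a prenyl anchor and recruits effectors, which move, tether or fuse vesicles. In macrophages Rab proteins of the early endosome and then of the late endosome pass over the maturing phagosome, and others carry TLR4 to the cell surface, recycle it or send it to lysosomes. Secretory Rab proteins take part in the release of cytokines and granules.

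The deposited data are lists of open sites (peaks, all of the same width) called in every library separately, with no read counts. The lists held 299 to 127291 peaks, so list length limits what could be detected. The 2 shortest lists, both from C57BL6/J animal 6 (media and LPSx2), were left out, and the remaining 22 (7 media, 8 LPSx1 and 7 LPSx2) were limited to the highest-scoring peaks at 1 length per lane, between 11349 and 22037. A peak belonged to the gene with the nearest start site within 100 kb. The 2 readouts compared were the number of peaks of a gene, and its promoter rank, the percentile of its highest-scoring peak within 1 kb of a start site among all peaks of that list (0 where none was listed). In this bulk assay, a site open in more cells and a site more open in each cell cannot be told apart. The 8 macrophage marker genes all had peaks (Spi1 in all 22 libraries). Summed over each marker list, a library held 4 to 46 peaks for macrophage genes, and at most 3 for T cell, B cell, neutrophil, fibroblast or erythroid genes. In no library was a peak listed at 2 of 5 T cell, 3 of 5 B cell, 2 of 5 neutrophil, 4 of 5 fibroblast and 3 of 5 erythroid genes, Cd3e, Cd79a, Ly6g, Col1a1 and Hbb-bs among them. Others of these lists did have peaks: the neutrophil gene S100a8 in 17 of 22 libraries, fibroblast Pdgfrb in 16, T cell Bcl11b in 14 and Lck in 5, and erythroid Klf1 in 9.

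The sequences below are the highest-ranked peak of the distal Rab regions that were gained or lost with LPS, as described further on. They are shown because most of the LPS-gained and LPS-lost distal sites at Rab genes are among them. They come from the mm10 reference, 5′ to 3′ on the + strand, and capitals mark matches to the searched motifs: AP-1 (TGACTCA or TGAGTCA), PU.1 (GAGGAAGT), C/EBP (TTGCNNAA) and NF-kB (the standard kappa B consensus). Both strands were searched, so a capital run may read as the reverse complement. The first 4 windows were gained and the last 2 were lost. Matches of AP-1 stood in the Rab28 and Rab20 windows, of C/EBP in the Rab28 and Rab7b windows, of PU.1 in the Rab7b and Rab6b windows, and of NF-kB in the second Rab31 window. The first Rab31 window held none of them.
Rab28, chr5:41627544-41627744, + strand: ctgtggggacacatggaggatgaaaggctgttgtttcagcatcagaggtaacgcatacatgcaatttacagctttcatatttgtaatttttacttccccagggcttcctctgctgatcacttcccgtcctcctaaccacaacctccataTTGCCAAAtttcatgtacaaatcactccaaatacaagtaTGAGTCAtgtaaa
Rab31, chr17:65740478-65740678, + strand: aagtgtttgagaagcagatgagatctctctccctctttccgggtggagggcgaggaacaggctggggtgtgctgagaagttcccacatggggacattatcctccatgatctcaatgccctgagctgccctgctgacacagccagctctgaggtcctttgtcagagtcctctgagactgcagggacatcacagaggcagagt
Rab31, chr17:65730361-65730561, + strand: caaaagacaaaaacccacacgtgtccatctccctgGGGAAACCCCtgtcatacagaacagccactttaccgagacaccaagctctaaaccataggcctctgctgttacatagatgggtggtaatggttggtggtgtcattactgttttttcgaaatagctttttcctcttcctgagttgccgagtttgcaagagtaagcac
Rab20, chr8:11452714-11452914, + strand: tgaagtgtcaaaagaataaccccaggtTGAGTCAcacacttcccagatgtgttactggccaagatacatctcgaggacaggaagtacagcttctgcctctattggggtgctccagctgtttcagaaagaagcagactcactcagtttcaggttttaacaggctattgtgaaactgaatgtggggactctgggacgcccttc
Rab7b, chr1:131679752-131679952, + strand: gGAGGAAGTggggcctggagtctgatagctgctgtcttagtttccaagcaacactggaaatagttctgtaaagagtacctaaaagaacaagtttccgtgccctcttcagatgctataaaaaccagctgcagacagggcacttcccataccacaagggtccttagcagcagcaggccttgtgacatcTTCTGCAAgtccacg
Rab6b, chr9:103149179-103149379, + strand: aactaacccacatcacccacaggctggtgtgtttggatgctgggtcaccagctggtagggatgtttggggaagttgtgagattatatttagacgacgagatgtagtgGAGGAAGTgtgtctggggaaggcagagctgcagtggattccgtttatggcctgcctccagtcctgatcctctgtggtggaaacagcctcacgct

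Most Rab genes lay beside open chromatin. Of the 59, 42 (71.2%) reached a mean of 0.5 peaks per library and were tested, against 41.9% of all protein-coding genes. A promoter peak was listed in all 22 libraries for 16 Rab genes (27.1%, against 12.0% of all genes) and in none for 14 (23.7%, against 50.3%). The always-open promoters were those of Rab1a, Rab2b, Rab18, Rab30, Rab33b and Rab43 of the endoplasmic reticulum (ER) and Golgi, Rab5a, Rab5b and Rab5c of early endosomes, Rab32 and Rab39 of late endosomes, Rab4b and Rab11b of recycling endosomes, Rab3a and Rab8a of exocytosis, and Rab40c, a ubiquitin ligase subunit. No peak was assigned in any library to Rab15, Rab25, Rab26, Rab27b, Rab34, Rab40b or Rab9b, several of which are known mainly from epithelial, neuronal or secretory cells. The other 10 untested members (Rab19, Rab23, Rab24, Rab27a, Rab36, Rab37, Rab3b, Rab42, Rab44 and Rab4a) had means of 0.0909 to 0.318 peaks. They include Rab27a, which docks secretory granules, with a peak in 2 of 22 libraries.

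**Figure D1:**
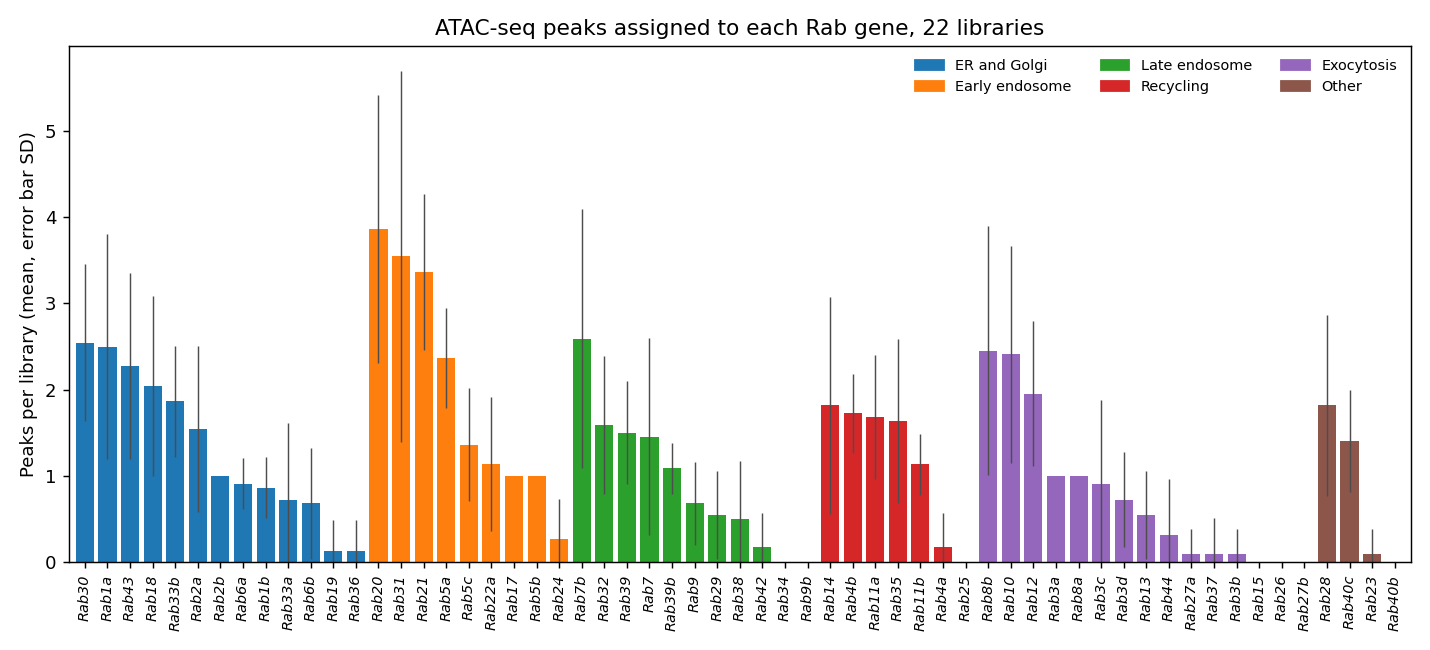
Mean number of peaks assigned to each of the 59 Rab genes over 22 libraries (bars, y axis in peaks per library), coloured by role, with the SD over libraries as an error bar whose lower end stops at 0. Rab20, Rab31 and Rab21 stand highest, and 7 genes have no bar.

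The 3 highest peak numbers were those of Rab20, Rab31 and Rab21, while the median over the 9 early endosome and phagosome members was 1.36 peaks, against 1.64 over the 7 recycling members. Rab20, which acts on phagosome maturation in macrophages, averaged 3.86 peaks per library, Rab31, which carries cargo between the Golgi and endosomes, 3.55, and Rab21, an endocytic Rab of integrin traffic, 3.36. Rab7b, a late endosomal Rab that sends TLR4 to lysosomes in macrophages, followed with 2.59, and Rab30 of the Golgi with 2.55. These neighbours in the order differed by less than the SD between libraries of Rab7b within a treatment. For these genes the peaks were mostly distal: the mean promoter rank of Rab20 was 1.5 and that of Rab31 was 9.58. At Rab20 an intronic region 14.4 kb downstream of the start site was listed in all 22 libraries. Rab2b, Rab3a, Rab5b and Rab8a had exactly 1 peak, at the promoter, in every library, and Rab17 had exactly 1, at -5.49 kb. The highest mean promoter ranks were 97.5 for Rab5a, the master Rab of early endosomes, 96.2 for Rab8a of Golgi-to-surface traffic and 95.3 for Rab18 of the ER and lipid droplets. Rab7, the late endosome and phagolysosome Rab, had a mean promoter rank of 42.2, Rab10, which delivers TLR4 to the surface, 48.4, Rab14 of recycling and phagosomal membranes 39.5, and Rab11a of the recycling endosome 10.8.

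A gene with a wide span between neighbouring start sites can collect more peaks. Per 100 kb of the span nearest to its own start sites, Rab4b had 24.1 peaks, Rab2b 11.2, Rab6a 10.8 and Rab3a 10.7, against a median of 1.95 over the 59 members. Rab20 had 4.18 and Rab31 5.05 on this scale, so their order on peak number did not carry over. The promoters of Rab13, Rab24, Rab2b and Rab6a lie within 1 kb of the start site of another gene (Rps27, Prelid1, Tox4 and Mrpl48, at 44, 36, 152 and 304 bp), and a peak there cannot be credited to 1 of the pair.

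The first comparison is of LPSx1 with media, which asks what a day of LPS does. Of the 42 Rab genes tested, peak number rose at Rab18, Rab3c and Rab32 and fell at Rab7b (limma with Benjamini-Hochberg adjusted p under 0.05), and 38 did not pass. Over all genes tested 6.01% were called (3.56% rose and 2.45% fell), so the share among Rab genes, 4 of 42, rests on few genes. At an unadjusted p under 0.05 stood 9 of the 42, and 21.6% of all genes. The median difference was 0.0365 peaks over the Rab genes and 0 over all genes.

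At Rab18 the LPSx1 libraries held 1, 4, 4 and 2 peaks in BTBR and 2, 3, 3 and 3 in C57BL6/J, while every media library held 1, at the promoter. The count was higher with LPS in 6 of 7 animals and equal in BTBR animal 2. The means were 2.75 ± 1.04 in LPSx1 (SD, n = 8) and 1.00 ± 0 in media (n = 7), a fitted difference of 1.65 ± 0.319 peaks (SE, limma adjusted p = 0.0109). In LPSx2 the mean was 2.29 ± 0.756 (n = 7), against media a fitted difference of 1.33 ± 0.327 (limma adjusted p = 0.0294), again higher in 6 of 7 animals. The LPSx1 call was lost without animal 4 (difference 1.52, limma adjusted p = 0.0655) or animal 7 (1.56, limma adjusted p = 0.0645). The LPSx2 call was lost without animal 1, 4, 5, 7 or 8, at differences of 1.17 to 1.5 with limma adjusted p of 0.0699 to 0.124.

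Rab7b showed the opposite direction. Its media libraries held 3, 4, 3 and 3 peaks in BTBR and 4, 7 and 2 in C57BL6/J. In LPSx1 they held 2, 4, 1 and 1 in BTBR and 2, 4, 1 and 1 in C57BL6/J, lower than the same animal's media in 6 of 7 and equal in BTBR animal 3. In LPSx2 they held 2, 3, 2 and 1 in BTBR and 2, 4 and 1 in C57BL6/J, lower in 7 of 7. The ranges overlapped between treatments, and the decline was within animals. Peak number averaged 2.00 ± 1.31 in LPSx1 (n = 8) and 3.71 ± 1.60 in media (n = 7), a fitted difference of -1.70 ± 0.339 (limma adjusted p = 0.0127). LPSx2 averaged 2.14 ± 1.07 (n = 7), against media a difference of -1.62 ± 0.348 (limma adjusted p = 0.0159). The first call was lost without animal 1 (-1.73, limma adjusted p = 0.0555) or animal 5 (-1.5, 0.0684), and the second without animal 1 (-1.62, 0.0769) or animal 8 (-1.5, 0.0562).

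Rab3c, a secretory vesicle Rab best known from neurons, had 1, 2, 1 and 0 peaks in LPSx1 in BTBR and 1, 3, 3 and 2 in C57BL6/J (1.62 ± 1.06, n = 8), against 0 or 1 in media (0.429 ± 0.535, n = 7). It was higher with LPS in 5 of 7 animals. The fitted difference was 1.2 ± 0.272 (limma adjusted p = 0.0228), and it was lost without animal 3, 4, 5 or 7 (differences of 1.00 to 1.19, limma adjusted p of 0.0730 to 0.102). In LPSx2 it averaged 0.571 ± 0.787 (n = 7), against media a difference of 0.25 ± 0.279 that did not pass (limma adjusted p = 0.624).

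Rab32, of lysosome-related organelles and of the macrophage response to intracellular bacteria, had 1, 2, 1 and 1 peaks in LPSx1 in BTBR and 2, 4, 3 and 2 in C57BL6/J. Media libraries held 1 peak in 6 of 7 and 2 in C57BL6/J animal 4, and the number was higher with LPS in 4 of 7 animals. The means of 2.00 ± 1.07 in LPSx1 (n = 8) and 1.14 ± 0.378 in media (n = 7) gave a fitted difference of 0.844 ± 0.208 (limma adjusted p = 0.0324). This call did not hold in these refits: with the animal as a replicate block the limma adjusted p was 0.0823, and it was lost on leaving out any 1 animal (0.725 to 0.917, limma adjusted p of 0.0553 to 0.106). In LPSx2 the difference against media was 0.458 ± 0.214 (limma adjusted p = 0.203).

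**Figure D2:**
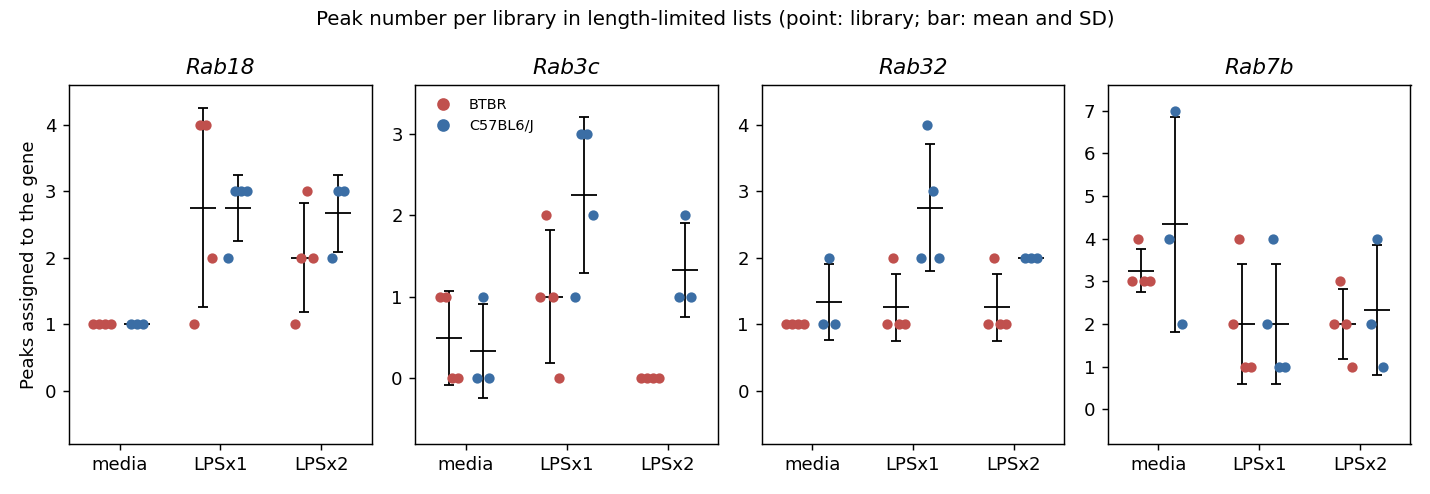
Peaks assigned to the 4 Rab genes called for peak number (y axis, peaks per library) in media, LPSx1 and LPSx2, with each library as a point coloured by strain and the mean and SD as bars. Rab18 stands at 1 to 4 in LPSx1 and at 1 in all media libraries, and Rab7b averages 2.00 in LPSx1 and 2.14 in LPSx2, against 3.71 in media.

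All these calls rest on lists of equal length. With the lists at full length no Rab gene and no other gene was called in either comparison, and the Rab7b difference turned to 0.0729 in LPSx1 (limma adjusted p = 0.994) and 0.25 in LPSx2 (limma adjusted p = 0.982). No Rab gene passed either with lists limited to 1 length within an animal, or without the 7 lists in which most peaks were listed in duplicate. Rab18 and Rab3c were not called where only peaks within 25 kb of a start site were counted. Within lanes 1 and 2 and within lanes 3 and 4, where each fit has fewer libraries, Rab18 differed by 1.5 and 1.81 in LPSx1 and Rab7b by -1.5 and -1.56, none of them called. Among the marker genes, macrophage Lyz2 rose in LPSx1, with 3.50 ± 2.27 peaks (n = 8) against 2.14 ± 1.35 in media (n = 7, limma adjusted p = 0.0386), and T cell Bcl11b rose in LPSx2, with 1.57 ± 1.13 (n = 7) against 0.143 ± 0.378 in media (n = 7, limma adjusted p = 0.031), where of the other T cell genes Lck had a peak in 5 of 22 libraries, Cd4 in 1, and Cd3e and Cd3g in 0. The part of these in the Rab results was not tested.

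In the comparison of LPSx2 with media, Rab18 rose and Rab7b fell, as given above, and 40 of 42 Rab genes did not pass, against 6.9% of all genes called (3.74% rose and 3.16% fell). Unadjusted p was under 0.05 for 8 of the 42 and for 24.8% of all genes. Next in order of the test statistic, Rab30 of the Golgi differed by 0.958 ± 0.384 (limma adjusted p = 0.143) and Rab12, which directs receptors from recycling endosomes to lysosomes, by 0.792 ± 0.319 (limma adjusted p = 0.144). On the negative side stood Rab13 of traffic to the cell surface, at -0.542 ± 0.196 (limma adjusted p = 0.110), and Rab8b, at -0.75 ± 0.363 (limma adjusted p = 0.223). In LPSx1 the next negative members were Rab29, a partner of the kinase Lrrk2, at -0.50 ± 0.221 (limma adjusted p = 0.204), and Rab6b of the Golgi, at -0.552 ± 0.259 (limma adjusted p = 0.233).

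Several Rab genes with known roles in phagosome or TLR4 traffic did not pass in either comparison. Rab31 averaged 3.00 peaks in media, 4.00 in LPSx1 and 3.57 in LPSx2, with differences against media of 1.33 ± 0.491 (limma adjusted p = 0.128) and 0.667 (0.440). Rab20 averaged 3.57, 4.25 and 3.71 in the same order, with differences of 0.917 ± 0.575 (limma adjusted p = 0.385) and 0.167 (0.952). Rab5a differed by 0.135 and 0.542, Rab7 by 0.156 and -0.0417, Rab10 by -0.562 and -0.417, Rab11a by -0.146 and -0.292, Rab14 by 0.302 and 0.167, and Rab38, which shares organelles with Rab32, by -0.375 and 0.167, all with a limma adjusted p of 0.29 or more. Rab8a differed by 0, since its promoter peak alone was listed in every library.

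**Figure D3:**
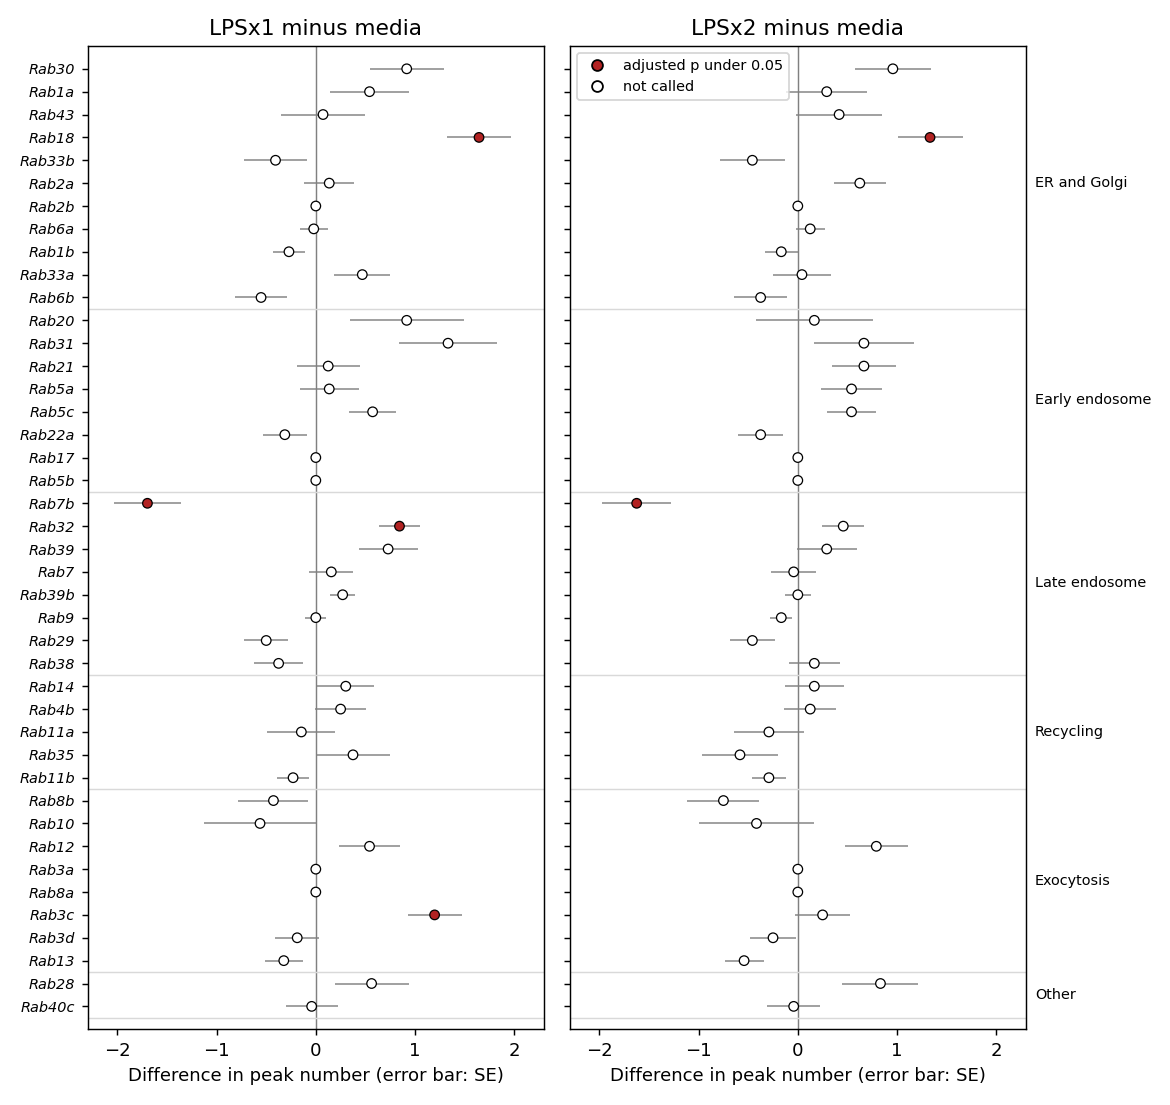
Fitted difference in peak number (x axis, peaks, with SE) of the 42 tested Rab genes for LPSx1 minus media and LPSx2 minus media, with filled red points for limma adjusted p under 0.05. Filled points mark Rab18 and Rab7b in both comparisons, and Rab3c and Rab32 in LPSx1.

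Peaks of the 22 libraries merged into 165 regions at Rab genes, 108 distal and 57 at promoters, out of 45009 in all. Distances are from the nearest start site of the gene, with negative ones upstream. A region was called gained where at least 5 of 7 animals had it with LPS and not in media and no animal the reverse, and lost in the opposite case. In LPSx1 against media 4 of 165 were gained (2.42%, against 1.86% of all regions) and 3 lost (1.82%, against 1.17%). In LPSx2 against media 4 were gained (2.42%, against 2.1%) and 3 lost (1.82%, against 1.41%). These shares are near those of all regions.

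Of the early endosome Rab genes, Rab31 and Rab20 held gained regions and Rab21 a lost one. At Rab31, an intronic region at 32.1 kb (chr17:65740370-65740699) was listed in 0 of 7 media, 6 of 8 LPSx1 and 6 of 7 LPSx2 libraries. A second one at 42.1 kb (chr17:65730277-65730739) was in 2 of 7 media, 7 of 8 LPSx1 and 7 of 7 LPSx2 libraries, and was called gained in LPSx2. Another Rab31 region at 34.9 kb was in 2 media, 7 LPSx1 and 6 LPSx2 libraries and met neither rule. At Rab20 an intergenic region 25.9 kb downstream of the start site (chr8:11452685-11452962) was in 0 of 7 media, 5 of 8 LPSx1 and 3 of 7 LPSx2 libraries. A promoter region of Rab21 (chr10:115315461-115315728) was called lost in LPSx1, with 1 of 8 libraries against 6 of 7 in media, and was listed in 5 of 7 LPSx2 libraries. Another promoter region lay beside it, at -0.383 kb (chr10:115315826-115316129). It was listed in 1 of 4 BTBR and 0 of 3 C57BL6/J media libraries, and in 1 of 4 and 2 of 4 LPSx1 libraries. Whether the listed peak shifted between the 2 regions was not tested.

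At Rab18 the extra peaks lay mainly in 1 intergenic region on chromosome 18, at -64.0 kb. It was listed in 0 of 7 media, 7 of 8 LPSx1 and 6 of 7 LPSx2 libraries, gained in 6 of 7 animals with either treatment, and held an AP-1 match. An intronic Rab18 region at -4.90 kb from the nearest annotated start was in 0 media, 5 LPSx1 and 3 LPSx2 libraries. At Rab28, a ciliary Rab, an intronic region at 80.4 kb (chr5:41627501-41627933) was in 0 of 7 media, 6 of 8 LPSx1 and 6 of 7 LPSx2 libraries. At Rab39, of late endosomes, an intronic region at 10.2 kb was in 0 media, 5 LPSx1 and 3 LPSx2 libraries, and met neither rule.

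The loss at Rab7b was of a region at -8.9 kb (chr1:131679639-131679952), listed in 6 of 7 media, 1 of 8 LPSx1 and 0 of 7 LPSx2 libraries. An intronic Rab7b region at 1.87 kb was in 7 of 7 media, 3 of 8 LPSx1 and 4 of 7 LPSx2 libraries, while another at 2.82 kb was listed in all 22. At Rab6b an intronic region at 37.5 kb (chr9:103149138-103149406) was in 5 of 7 media, 0 of 8 LPSx1 and 0 of 7 LPSx2 libraries. The Rab13 promoter region, shared with Rps27, was in 2 of 7 LPSx2 and 7 of 7 media libraries. At Rab3c no single region met the rule: an intronic one at 95.0 kb was in 3 of 7 media, 7 of 8 LPSx1 and 3 of 7 LPSx2 libraries.

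**Figure D4:**
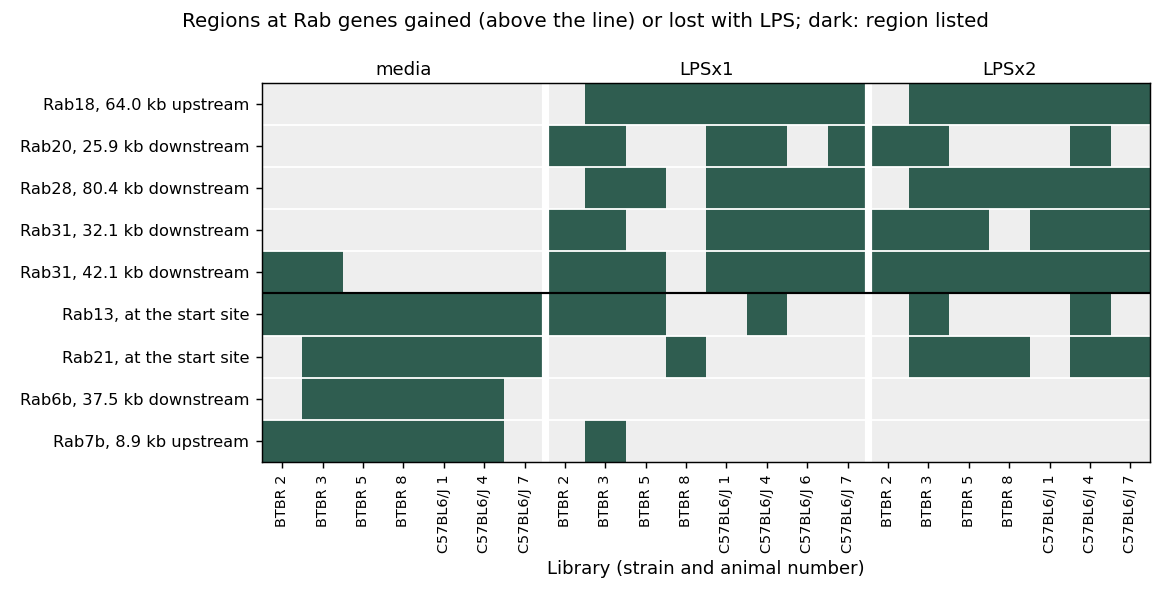
Regions at Rab genes called gained (rows above the line) or lost (rows below it) with LPS, with libraries as columns ordered by treatment and a dark cell where the region was listed. The regions at Rab18, Rab20 and Rab28 and the 32.1 kb region at Rab31 have no dark cell in any of the 7 media libraries.

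Promoter ranks fell with LPS at 10 Rab genes and rose at none. In LPSx1 against media, 3 of 32 tested fell and none rose, and in LPSx2 against media 8 of 32 fell and none rose, against 13.4% and 20.8% of all tested promoters called (10.8% fell and 2.52% rose, then 17.9% fell and 2.87% rose). Differences were negative, called or not, for 28 of 32 Rab genes in LPSx1 (87.5%, against 69.4% of all genes) and 26 of 32 in LPSx2 (81.2%, against 72.9%). The median change was -6.38 percentile points over the Rab genes and -6.34 over all genes in LPSx1, and -11.9 and -8.49 in LPSx2. In the same lists promoters made up 43.7% ± 7.19 of the peaks in LPSx1 (n = 8) and 41.2% ± 5.54 in LPSx2 (n = 7), against 53.3% ± 10.7 in media (n = 7), lower in 7 of 7 animals for both. The promoter rank of Cd68, a macrophage marker, fell to 53.0 ± 35.0 in LPSx1 (n = 8) and 56.0 ± 38.4 in LPSx2 (n = 7), against 82.4 ± 15.5 in media (n = 7), by -28.6 (limma adjusted p = 0.0433) and -28.8 (limma adjusted p = 0.036). The part of these in the ranks of single Rab promoters was not tested.

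Among the ER and Golgi Rab genes, Rab33b, which binds the autophagy protein Atg16l1, fell most in LPSx1. Its promoter rank had a median of 32.3 in LPSx1 (6.52 to 56.1) and 77.9 in media (17.5 to 87.4), lower in 6 of 7 animals, with a fitted difference of -46.3 ± 9.85 (limma adjusted p = 0.00344). It kept that call on leaving out each animal. In LPSx2 the difference was -19.3 (limma adjusted p = 0.165). Rab1b, which works in ER-to-Golgi transport, had a median of 17.7 in LPSx2 (0 to 54.4) and 63.6 in media (7.44 to 78.7), a difference of -35.3 ± 9.93 (limma adjusted p = 0.0141). Leaving out animal 1, 5 or 7 lost it (-33.7 to -29.1, limma adjusted p of 0.0628 to 0.0666). Rab2b moved little but evenly, with medians of 91.9 in LPSx2 (75.5 to 94.6) and 96.1 in media (93 to 98.9), lower in 7 of 7 animals (-6.98 ± 2.33, limma adjusted p = 0.0332). Its call was lost without animal 1, 2, 4, 5, 7 or 8 (-7.59 to -5.39, limma adjusted p of 0.0541 to 0.0907), and its promoter is shared with Tox4.

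Of the late endosome Rab genes, Rab39, whose human homologue has been tied to interleukin-1 release, fell in LPSx2. Its rank had a median of 69.5 in LPSx2 (58.5 to 93.1) and 96.1 in media (81.9 to 97.9), lower in 7 of 7 animals, a difference of -19.8 ± 4.41 (limma adjusted p = 0.00329) that held without each animal. Rab29 fell in LPSx1, with medians of 0 (0 to 46.3) against 47.5 in media (0 to 57.2) and a difference of -26.6 ± 9.12 (limma adjusted p = 0.0496). It was lower in 5 of 7 animals and higher in the other 2. That call is marginal: it was lost with the replicate block (limma adjusted p = 0.0877) and without animal 1, 4, 5, 6, 7 or 8 (-31.1 to -19.0, limma adjusted p of 0.0715 to 0.238).

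Of the recycling Rab genes, Rab14 was called lower with both treatments when the strains were averaged. Its rank had medians of 73.6 in media (19.9 to 83.6), 19.6 in LPSx1 (0 to 80) and 7.01 in LPSx2 (0 to 57.2). The LPSx1 difference was -34.8 ± 9.61 (limma adjusted p = 0.0183), lower in 4 of 7 animals and higher in 3, and was lost without animal 3, 5 or 7 (-32.2 to -31.9, limma adjusted p of 0.0638 to 0.0702). The ranks split by strain. C57BL6/J animals 1, 4 and 7 went from 51.05, 75.29 and 83.65 in media to 6.595, 6.255 and 0 in LPSx1. BTBR animals 2, 5 and 8 went from 19.92, 74.85 and 61.41 to 32.64, 79.95 and 68.04, and BTBR animal 3 from 73.61 to 58.23. The interaction of strain with LPSx1 was not called for this promoter. The LPSx2 difference was -39.1 ± 9.88 (limma adjusted p = 0.00742), lower in 7 of 7, and was lost without animal 7 (-30.9, limma adjusted p = 0.0678). Rab35, of fast recycling from the surface, had medians of 0 in LPSx2 (0 to 32.7) and 30.3 in media (0 to 67.9), a difference of -27.3 ± 8.97 (limma adjusted p = 0.0310). Its rank was lower in animals 4, 5, 7 and 8, higher in animal 3 (32.67 against 25.54), and 0 in both treatments in animals 1 and 2. The call was lost without animal 4, 5, 7 or 8 (-25.0 to -19.9, limma adjusted p of 0.0834 to 0.189).

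The exocytic Rab3d, Rab13 and Rab8b fell in LPSx2. Rab3d, of secretory granules, had medians of 1.89 in LPSx2 (0 to 60.3) and 65.6 in media (0 to 81.9), lower in 6 of 7 animals and higher in 0, a difference of -40.9 ± 10.7 (limma adjusted p = 0.00941) that held without each animal. Rab13 had medians of 0 (0 to 49.1) in LPSx2 and 53.2 (17.5 to 69) in media, lower in 7 of 7 animals (-40.0 ± 10.6, limma adjusted p = 0.00994), and was lost without animal 1 (-38.8, limma adjusted p = 0.0509). Rab8b had medians of 16.9 (0 to 49.5) in LPSx2 and 59.0 (0 to 77.2) in media (-34.4 ± 10.4, limma adjusted p = 0.0208). Its call was lost without animal 1 (-37.2, 0.0537) or animal 7 (-25.9, 0.136). No early endosome Rab promoter passed: the nearest was Rab21 in LPSx1, at -31.1 ± 10.7 (limma adjusted p = 0.05, just above the threshold before rounding). With lists limited to equal length within an animal instead of a lane, none of the promoter calls in either comparison passed.

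**Figure D5:**
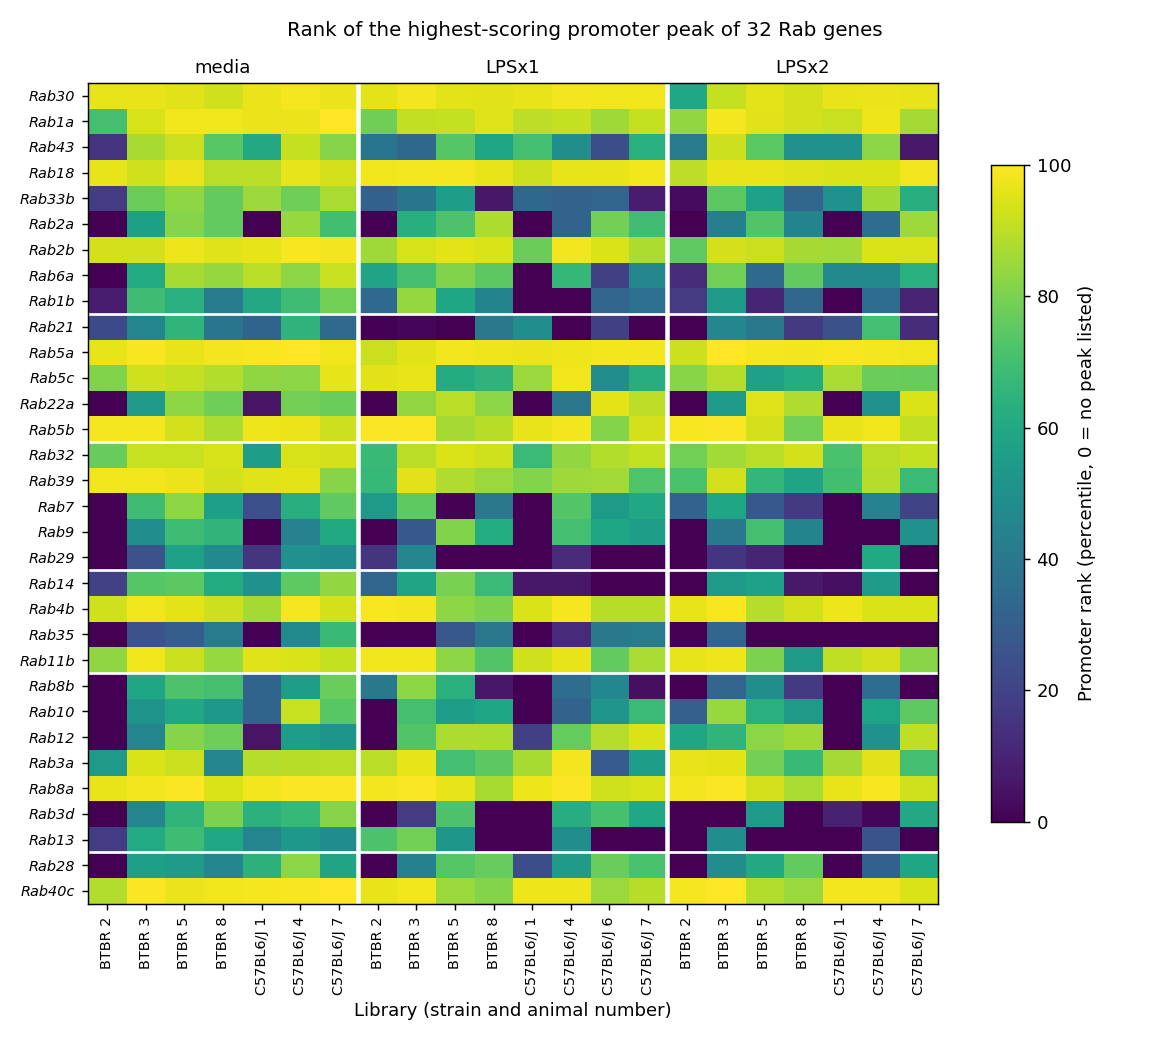
Promoter rank (colour, percentile, 0 where no promoter peak was listed) of the 32 tested Rab genes (rows) in each of the 22 libraries (columns, grouped by treatment, strain and animal number on the x axis). Rab5a, Rab8a and Rab18 are high in every library, and Rab14 and Rab13 are mostly low in the LPSx2 columns.

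LPSx2 was compared with LPSx1 to ask whether a second exposure differs from the first. No Rab gene was called for peak number by limma, with 3 of 42 at an unadjusted p under 0.05, against 0.0% of all genes called and 4.64% at an unadjusted p under 0.05. The same holds for promoter ranks, where 0 of 32 were called (0.0% of all genes) and 2 had an unadjusted p under 0.05, against 6.54% of all genes. The largest Rab differences were -0.948 ± 0.272 peaks at Rab3c (limma adjusted p = 0.905) and -0.958 ± 0.37 at Rab35 (0.994). Positive ones were 0.542 at Rab21, 0.49 at Rab2a and 0.542 at Rab38, none of which passed. No region at a Rab gene met the rule between LPSx2 and LPSx1, against 0.0311% of all regions gained and 0.0289% lost.

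Between strains, 1 of the 42 Rab genes was called: Rab32 had fewer peaks in BTBR than in C57BL6/J macrophages. All genes were called at 1.87% (0.755% higher and 1.12% lower in BTBR), and 5 of 42 Rab genes and 14.8% of all genes had an unadjusted p under 0.05. The BTBR libraries held 1 peak in 10 of 12, and 2 in both LPS libraries of animal 3. The C57BL6/J libraries held 1, 2 and 1 in media, 2, 4, 3 and 2 in LPSx1, and 2, 2 and 2 in LPSx2. The averages per animal were 1.17 ± 0.333 in BTBR (1 to 1.67, n = 4) and 2.25 ± 0.687 in C57BL6/J (1.67 to 3, n = 4), where the highest, animal 6, rests on its LPSx1 library alone.

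The fitted strain difference for Rab32 was -0.840 ± 0.160 peaks (limma adjusted p = 0.0158, animal as a random effect). An intronic region at 2.83 kb (chr10:10555251-10555611) was listed in 2 of 12 BTBR and 8 of 10 C57BL6/J libraries. By treatment these were 0 of 4 BTBR and 1 of 3 C57BL6/J media libraries, 1 of 4 and 4 of 4 LPSx1 libraries, and 1 of 4 and 3 of 3 LPSx2 libraries. The promoter region of Rab32 was listed in all 22. The call was lost without animal 2 (-0.914, limma adjusted p = 0.0781), 3 (-0.765, 0.0779) or 5 (-0.778, 0.142), and with 1 mean per animal (-1.08 ± 0.293, limma adjusted p = 0.490). With the lists at full length the difference turned to 1.25 (limma adjusted p = 0.774), and with lists limited within an animal to 0.554 (limma adjusted p = 0.915).

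Other Rab genes between strains did not pass. Rab3c differed by -0.803 ± 0.216 peaks (limma adjusted p = 0.0806), with 0.50 per animal in BTBR and 1.67 in C57BL6/J. The highest C57BL6/J value, 3 in animal 6, rests on its LPSx1 library alone. Rab3d differed by -0.592 ± 0.17 (limma adjusted p = 0.107), and on the positive side Rab40c by 0.556 ± 0.203 (limma adjusted p = 0.209), Rab1b by 0.259 and Rab39b by 0.197. No Rab promoter rank was called between strains by limma (1.78% of all genes were, 0.659% higher and 1.12% lower in BTBR; 2 of 32 Rab genes and 14% of all genes had an unadjusted p under 0.05), and no region at a Rab gene met the rule of all 4 animals of 1 strain and none of the other (0.164% of all regions BTBR only, 0.322% C57BL6/J only). The strains were not shown to differ in their LPS response at Rab genes. The interaction of strain with LPSx1 called 0 of 42 for peak number by limma (0.0328% of all genes), with 3 of 42 at an unadjusted p under 0.05, against 5.88% of all genes. The interaction with LPSx2 called 0 by limma (0.0109% of all genes), with 2 of 42 at an unadjusted p under 0.05, against 6.44%. The promoter rank interactions called 0 of 32 (0.0% of all genes for both), with 5 and 2 at an unadjusted p under 0.05, against 9.64% and 10.3% of all genes. The nearest for peak number was Rab32 in LPSx1, at -1.19 (limma adjusted p = 0.774).

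Rab genes as a group took 0.445% ± 0.0258 of gene-assigned peaks in media (n = 7), 0.487% ± 0.0398 in LPSx1 (n = 8) and 0.474% ± 0.0177 in LPSx2 (n = 7), higher than media in 6 of 7 and 5 of 7 animals. Per animal the share was 0.465% ± 0.0249 in BTBR and 0.476% ± 0.0229 in C57BL6/J (n = 4 each). These shares are given as a description.

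The genes that switch, anchor and read Rab proteins were followed by lists chosen with earlier results of these data known. Over these lists 14 calls were made on peak number and 25 on promoter rank, of which 3 and 6 held without each animal. The GAP, GEF, effector and prenylation lists had 23, 27, 32 and 7 genes tested for peak number, and 22, 18, 19 and 6 for promoter rank. Of all genes, 6.01% in LPSx1, 6.9% in LPSx2 and 1.87% between strains were called for peak number. For promoter rank these shares were 13.4%, 20.8% and 1.78%. As for the Rab genes, none of the peak number calls passed with full-length lists, and none of either kind with lists limited within an animal.

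Of 33 Rab GAP genes, 23 were tested for peak number: 1 rose in LPSx1 and 2 in LPSx2, and none fell, against 3.56% and 3.74% of all genes that rose. Evi5l, a TBC-domain protein, had 1.00 ± 0 peaks in media (n = 7), 2.12 ± 0.641 in LPSx1 (n = 8) and 2.29 ± 0.756 in LPSx2 (n = 7). Its differences against media were 1.08 ± 0.188 (limma adjusted p = 0.00607) and 1.38 ± 0.193 (limma adjusted p = 0.0017), and both held without each animal. Tbc1d4, a GAP of Rab10 and Rab14, rose in LPSx2 by 1.08 ± 0.304 (limma adjusted p = 0.0491), a call lost with the replicate block (0.0777) and without each animal but animal 2 (0.833 to 1.25, limma adjusted p of 0.0564 to 0.175). Its promoter rank fell in LPSx1, to 48.5 ± 31.8 against 90.4 ± 5.59 in media (-44.1 ± 8.76, limma adjusted p = 0.0022), and that held without each animal. Of 22 Rab GAP promoters tested, 5 fell in LPSx1 (Tbc1d9, Tbc1d4, Rabgap1l, Tbc1d2 and Evi5) and 6 in LPSx2 (Rabgap1l, Tbc1d2, Usp6nl, Tbc1d9, Tbc1d8 and Evi5), by -48.7 to -16.7, and none rose. Over all promoters 10.8% fell in LPSx1 and 17.9% in LPSx2. In LPSx1 the replicate block lost Tbc1d2 (limma adjusted p = 0.0528) and Evi5 (limma adjusted p = 0.0611).

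Of the 37 annotated Rab GEF genes, 27 were tested for peak number. With LPSx1, 1 fell, against 2.45% of all genes, and with LPSx2, 1 rose, against 3.74%. In LPSx1 Dennd5a, a GEF of Rab39, fell to 0.25 ± 0.463 peaks against 1.00 ± 0.816 in media (-0.719 ± 0.162, limma adjusted p = 0.0223). It was lost with the replicate block (0.0588) and without animal 3, 4, 5, 7 or 8 (-0.681 to -0.646, limma adjusted p of 0.0710 to 0.102). In LPSx2 Rin2, a GEF of Rab5, rose to 4.57 ± 2.44 against 3.14 ± 0.69 in media (1.62 ± 0.446, limma adjusted p = 0.0459), a call lost with the block (0.0800) and without any 1 animal (1.12 to 1.88, limma adjusted p of 0.0556 to 0.210). Of 18 GEF promoters tested, Rgp1 fell in LPSx1, and Dennd2c, Dennd4b and Rgp1 fell in LPSx2, that is 1 and 3 of 18, against the 10.8% and 17.9% of all promoters. Dennd2c, which acts on Rab9, ranked at 29.4 ± 32.6 in LPSx2 and 73.6 ± 10.2 in media (-44.7 ± 9.84, limma adjusted p = 0.00303), and held without each animal.

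Of the 51 annotated effector genes, 32 were tested for peak number and 0 were called in LPSx1 by limma, against 6.01% of all genes. With LPSx2, 1 rose and 1 fell, against 3.74% and 3.16% of all genes. In LPSx2 Rab11fip5, which binds Rab11, rose by 1.08 ± 0.298 (limma adjusted p = 0.0461), a call lost without any 1 animal (0.75 to 1.25, limma adjusted p of 0.0530 to 0.121). Plekhm1, which ties Rab7 to lysosome fusion, fell to 0.429 ± 0.787 peaks in LPSx2 against 2.29 ± 1.11 in media (-1.92 ± 0.439, limma adjusted p = 0.0219), lost without animal 1, 4, 5 or 7 (-2.0 to -1.67, limma adjusted p of 0.0502 to 0.0913). Of 19 effector promoters tested, Osbpl1a, Rubcn and Myo5a fell with both treatments, and Uso1 fell in LPSx2, that is 3 and 4 of 19, against 10.8% and 17.9% of all promoters. Osbpl1a, a Rab7 effector that places late endosomes, ranked at 62.6 ± 21.6 in media, 17.9 ± 22.6 in LPSx1 and 8.80 ± 16.5 in LPSx2, with differences of -48.9 ± 9.04 (limma adjusted p = 0.00121) and -54.9 ± 9.29 (limma adjusted p = 0.00053) that held without each animal. Myo5a was lost with the replicate block in both comparisons (limma adjusted p = 0.0647 and 0.0579).

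Of 10 genes for prenylation, recycling and phosphorylation of Rab proteins, 7 were tested for peak number. In each LPS comparison 1 rose and 1 fell, counts that rest on few genes. Over all genes 3.56% rose and 2.45% fell in LPSx1, and 3.74% rose and 3.16% fell in LPSx2. Of 6 promoters tested, 1 fell in LPSx1 and 0 in LPSx2, against 10.8% and 17.9% of all promoters. Ppm1h, the phosphatase that removes Lrrk2-added phosphates from Rab proteins, rose to 7.12 ± 3.48 peaks in LPSx1 (n = 8) and 7.71 ± 4.99 in LPSx2 (n = 7), against 3.43 ± 2.23 in media (n = 7). The LPSx2 difference of 4.71 ± 0.924 (limma adjusted p = 0.0104) held without each animal. That of LPSx1, 4.06 ± 0.899 (limma adjusted p = 0.0209), was lost with the replicate block (0.0570) and without animal 3, 5, 7 or 8 (3.67 to 4.13, limma adjusted p of 0.0610 to 0.102). Rabggta, a subunit of the enzyme that prenylates Rab proteins, fell to 0.25 ± 0.463 in LPSx1 and 0.286 ± 0.488 in LPSx2, against 1.29 ± 0.756 in media. The LPSx1 difference was -1.18 ± 0.269 (limma adjusted p = 0.0238, and 0.0504 with the block), lost without animal 3, 5, 7 or 8 (-1.14 to -1.0, limma adjusted p of 0.0856 to 0.104). The LPSx2 difference was -1.04 ± 0.277 (limma adjusted p = 0.0406), lost without animal 3, 4, 5, 7 or 8 (-1.0 to -0.875, limma adjusted p of 0.0768 to 0.186). The promoter rank of Lrrk2, the Rab kinase, fell to 43.0 ± 29.0 in LPSx1 against 73.4 ± 18 in media (-33.0 ± 8.85, limma adjusted p = 0.0153), lost without animal 1 or 4 (-30.0 to -29.8, limma adjusted p of 0.0510 to 0.0616).

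Between strains, the promoter of Ankrd27, which is a GEF of Rab21 and binds Rab32, ranked at 40.0 ± 16.7 in BTBR and 84.9 ± 8.55 in C57BL6/J (SD over 4 animals each). The difference fitted over libraries was -45.4 ± 7.21 (limma adjusted p = 0.000221), and it held without each animal. With lists limited within an animal it was -25.9 (limma adjusted p = 0.973). No fit with 1 mean per animal was run for promoter ranks. For every gene in this paragraph, C57BL6/J animal 6 rests on its LPSx1 library alone. Rab3gap2, a subunit of the GEF of Rab18, had 2.58 ± 1.87 peaks per animal in BTBR and 4.58 ± 1.69 in C57BL6/J (-1.79 ± 0.3, limma adjusted p = 0.00746). It was lost without animal 2 or 5 (-1.71 to -1.67, limma adjusted p of 0.0737 to 0.0828) and with 1 mean per animal (-2.0, limma adjusted p = 0.32), and turned to 3.51 with full-length lists (limma adjusted p = 0.769). Evi5l had 1.5 ± 0.192 in BTBR and 2.33 ± 0.471 in C57BL6/J (-0.716 ± 0.143, limma adjusted p = 0.0206), lost without animal 1, 3, 4, 5 or 7 (-0.771 to -0.667, limma adjusted p of 0.0715 to 0.165) and with 1 mean per animal (-0.833, limma adjusted p = 0.32). The Evi5l difference turned to 0.0315 with full-length lists (limma adjusted p = 0.992) and 0.004 with lists limited within an animal (limma adjusted p = 1.0). Myrip, a Rab27 effector, had 0.917 ± 0.569 in BTBR and 0.25 ± 0.5 in C57BL6/J (0.912 ± 0.211, limma adjusted p = 0.0426), lost without animal 1, 2, 3, 4, 7 or 8 (0.60 to 1.06, limma adjusted p of 0.0740 to 0.354) and with 1 mean per animal (0.667, limma adjusted p = 0.63). The promoter of Tbc1d17, a TBC-domain GAP, ranked at 32.7 ± 30 in BTBR and 71.1 ± 11.1 in C57BL6/J (-39.5 ± 8.4, limma adjusted p = 0.00668), lost without animal 1 or 2 (-26.2 to -25.9, limma adjusted p of 0.101 to 0.158). With lists limited within an animal it was -24.2 (limma adjusted p = 0.973).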

How the data were processed

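Per the submitters' processing notes, the authors trimmed reads with Trimmomatic 0.38, used SAMtools 1.8, Picard 2.18.4 and bedtools, kept fragments under 147 bp and called peaks with HOMER in each library on mm10. The aligner is not given in the sources used here. The authors deposited peak positions with a score per peak in steps of 0.5 and an unstated scale, which served here for ranking within each list. Overlapping peaks, frequent in 7 lists, were merged to the higher score. Lists under 5000 peaks were left out. Without read counts, depth is known only as list length. Lists were limited to 11349, 22037, 16045 and 13957 peaks in lanes 1 to 4. Start sites were those of GENCODE M21.

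Genes averaging 0.5 peaks or more (9139), or a promoter peak in at least 50% of libraries (7136), entered limma 3.58.1 in R 4.3.3 (trend and robust, strain and treatment groups plus lane), with Benjamini-Hochberg adjustment over all of them at 0.05. The strain contrast took the animal as a random effect through the function duplicateCorrelation (consensus -0.0676 for peak number and -0.0224 for promoter rank). Regions were built by merging peaks sharing at least 1 bp. The fits were tested on simulated data. Replicates are the labels' biological replicates, taken as animals. The p-values measure the spread between libraries within groups, pooled over groups, and the treatment contrasts had no animal term. With a consensus below 0, the strain contrast treated the libraries of an animal much as separate ones. With 1 mean per animal, 18 of 9139 genes were called between strains for peak number, against 171. The replicate number was taken to mark the same animal in all treatments. Deviations of the 21 pairs with the same number correlated at 0.195 to 0.792, and at -0.277 to 0.440 after removing lane. Libraries of a number share a lane, so these values cannot show that it marks an animal. The fit with the animal as a block changed the calls of Rab32 and of the Rab29 promoter, both in LPSx1. Members and lists were chosen with earlier results of these data known. Named were members past the threshold, with a called region, with the 3 highest or lowest test statistics per comparison, or with a macrophage or TLR4 role. Alternatives covered list length, merging, distance, filters, lane, block, lanes apart, scale and each animal left out. Sequences came from GRCm38.p6, the genome assembly behind mm10. Rab18 lies on chromosome 18, and its sequence is not reported here.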

Additional observations from a re-analysis of the deposited data

Results flagged for a closer look

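In groups of 4 libraries of 1 strain and treatment, 1 library stood far from its group by Dixon's criterion for 12 of 57 groups examined. In most of these the remaining libraries held the same value, an equal count or a rank of 0. There the criterion flags any gap, whatever its size, so the number of flags cannot be set against a chance rate. Of BTBR animal 3, Rab7b had 4 peaks in media, Rab32 had 2 peaks in LPSx1 and 2 in LPSx2, and the promoter ranks in LPSx2 were 49.1 for Rab13 and 32.7 for Rab35. Of the other BTBR animals, the promoter rank of Rab33b was 17.5 in media of animal 2 and that of Rab3d was 53.6 in LPSx2 of animal 5. In C57BL6/J LPSx1, Rab18 had 2 peaks in animal 1, where the promoter rank of Rab3d was 0. The promoter ranks of Rab13 and Rab29 were 49.5 and 12.3 in animal 4, and that of Rab33b was 8.04 in animal 7. In the LPSx2 list of C57BL6/J animal 6, left out for its length of 1879 peaks, Rab genes took 0.622% of gene-assigned peaks, above the share in each of the media lists kept.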

How the results depend on the processing

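The lists hold peaks and no counts, so a site missing from a list was not detectable at that list length and need not be closed. The number of Rab genes called for peak number was 4 in LPSx1 against media. It was 0 with full-length lists, lists limited within an animal, no library left out, no duplicate-bearing lists, or lanes 3 and 4 only. It was 1 without the lane term (Rab18) or in lanes 1 and 2 only (Rab39b), and 2 (Rab12 and Rab30) in the stronger 50% of each list. The 2 in LPSx2 against media were 0 with full-length lists, lists limited within an animal, no lane term, no library left out, no duplicate-bearing lists, or either pair of lanes, 5 in the stronger 50%, with distal peaks only or with 1 list length for all, and 6 without merging. With peaks within 25 kb the counts were near those reported, but the genes changed. Rab31, Rab32 and Rab7b were called in LPSx1, and Rab31 and Rab7b in LPSx2. Rab18 and Rab3c were not called there. The 0 in LPSx2 against LPSx1 was 1 (Rab39b) in lanes 1 and 2. The interaction counts of 0 were 1 (Rab39b) in lanes 1 and 2 and 1 (Rab6b) in lanes 3 and 4 for LPSx1, and 1 (Rab6b) in lanes 3 and 4 for LPSx2. The 1 called in BTBR against C57BL6/J was 0 with full-length lists, lists limited within an animal, no lane term, no library left out, no duplicate-bearing lists, or 1 mean per animal, and 2 in the stronger 50%, with distal peaks only or with 1 list length for all. Where that count stayed at 1, the gene was Rab39b in lanes 1 and 2, Rab6b in lanes 3 and 4, and Rab3c without animal 2. Rab32 differed by -0.833 and -0.855 in the 2 pairs of lanes (limma adjusted p = 0.31 and 0.274). Promoter calls, 3 in LPSx1 and 8 in LPSx2, were 0 in both with lists limited within an animal, and 1 in LPSx1 without merging. The cause of these changes was not tested.

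Leaving out each animal gave 1 to 4 Rab genes called for peak number in LPSx1, 0 to 4 in LPSx2 and 0 to 2 between strains, and 1 to 7 and 3 to 8 promoters in LPSx1 and LPSx2. The LPSx2 against LPSx1, promoter strain and interaction counts stayed at 0 there. Regions gained at Rab genes, 4 in each LPS comparison with media, numbered 11 in LPSx1 and 9 in LPSx2 with full-length lists. They numbered 3 and 4 in the stronger 50%, and 0 and 0 within 25 kb. Lost regions, 3 in each comparison, numbered 0 in LPSx1 and 2 in LPSx2 (Rab6b and Rab7b) with full-length lists. They numbered 0 and 0 in the stronger 50%, and 2 and 2 within 25 kb. Rab20 and Rab21 held no called region with full-length lists. The 0 regions in 1 strain became 1 (Rab30) in the stronger 50%. The region rules could not be applied without the duplicate-bearing lists, as too few animals remained. Over all genes and all alternatives, refits without single animals included, the counts called ran from 0 to 845 in LPSx1 (549 as reported), 0 to 1272 in LPSx2 (631) and 0 to 521 between strains (171) for peak number, from 0 to 308, 0 to 352 and 0 to 427 where 0, 3 and 1 were reported for LPSx2 against LPSx1 and the 2 interactions, and for promoter rank from 32 to 1242 in LPSx1 (953), 89 to 1978 in LPSx2 (1481), 0 to 232 between strains (127) and 0 to 2 and 0 to 3 for the interactions (0 and 0).

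Signs turned mostly with list length. With full-length lists, the Rab7b difference was 0.0729 in LPSx1 and 0.25 in LPSx2 against media, Rab8b 2.17 in LPSx2, Rab21 -0.104 and Rab35 0.167 in LPSx2 against LPSx1, and Rab32 1.25, Rab3c 0.531 and Rab3d 0.111 between strains. With no library left out they were 0.25, 0.375, 1.88, -0.375, 0.125, 1.33, 0.75 and 0.25 in the same order, and Rab38 was -0.125 in LPSx2 against LPSx1. With lists limited within an animal, Rab2a was -0.115 and Rab38 -0.396 in LPSx2 against LPSx1, and Rab32 0.554, Rab3c 0.513 and Rab3d 0.257 between strains. In the stronger 50%, Rab21 was -0.333, Rab2a -0.177 and Rab35 0.302 in LPSx2 against LPSx1, and Rab21 was -0.0104 with distal peaks only. The replicate block lost the LPSx1 calls of Rab32 (0.0823) and of the Rab29 promoter (0.0877) and changed no other Rab call, with 3 Rab genes called in LPSx1 and 2 in LPSx2.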

Other observations

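Among the 108 distal regions at Rab genes, an AP-1 match stood in 32 (29.6%), against 21% of the 26431 distal regions in all, and in 1 of 57 promoter regions (1.75%, against 4.11%). PU.1, the lineage factor of macrophages, matched 14.8% of the distal Rab regions (11% of all), C/EBP 16.7% (15.3%), NF-kB 5.56% (4.15%) and the interferon element ISRE 2.78% (3.48%). The lysosomal CLEAR element (TCACGTGA) and the cAMP element CRE (TGACGTCA) matched none of the distal Rab regions. The median GC content of the distal windows was 47.8% at Rab genes and 48.8% in all.

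Of the distal Rab regions, 25 (23.1%, against 23.2% of all) were listed in at least 2 LPS libraries and no media library. They held an AP-1 match in 11 (44.0%), against 29.8% of the 6120 such regions in all. The 7 listed in at least 2 media libraries and no LPS library (6.48%, against 3.64%) held AP-1 in 0, against 7.38% of 962, and PU.1 in 2 (28.6%, against 12.2%). In the 50 listed in both kinds of library AP-1 matched 15 (30%, against 20.6%). These are shares of letters in windows, given without a test, and they say nothing on binding.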
